A study of Caenorhabditis elegans with 2 samples.

Results

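The homeobox genes of Caenorhabditis elegans were taken as the protein-coding genes named ceh and a number, together with 24 listed homeobox genes that carry other names. There were 87 such genes, 63 of them with a ceh name, among 19973 protein-coding genes of the nuclear genome. The data were peak lists from chromatin immunoprecipitation followed by sequencing (ChIP-seq) of UNC-130, a forkhead transcription factor, in 2 biological replicates of 1 group. Per the labels, the animals were whole L1 larvae of both sexes of strain OP77, genotype unc-119(ed3) III; wgIs77, and wgIs77 is an insertion that targets unc-130. The described target of the immunoprecipitation was eGFP-tagged UNC-130, whereas the antibody label names unc-130. The size range given is 150 to 350. All animals carried the unc-119 allele and the transgene, whole animals were used with no separation of cells, and a control experiment was not analysed here. No contrast between conditions exists and no test was run, so every comparison with other genes below is a description.

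A homeobox encodes the homeodomain, a compact helical domain that binds DNA. Hox genes of this family give cells their position along the body axis, TALE-class proteins such as CEH-20 and UNC-62 bind DNA together with Hox proteins, and many LIM, POU and paired-like members fix the identity of single neuron types. UNC-130 belongs to the FoxD class of forkhead factors and is known in worms for guiding migrating axons and cells and for setting the fates of glia and of some sensory neurons.

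Few homeobox genes had an optimal UNC-130 summit nearby. Of the 16 such summits, 12, or 75%, lay nearer to the 5′ end of another gene. Over all pairs of a gene and a summit the share was 68.1%. Here the 5′ end is that of the gene model, and starts of single transcripts were not counted. The optimal list holds the 2631 pooled peaks that passed the authors' reproducibility filter, and a summit is the point that the deposited files mark as a peak's maximum. Near homeobox genes, its 16 peaks were those among the highest 2631 by pooled signal, and not all of them stood high in each replicate. A summit of that list lay within 5000 bp of the gene body for 13 of 87 homeobox genes, or 14.9% (95% Wilson interval 8.95% to 23.9%), against 30% of all 19973 protein-coding genes, a set that includes the homeobox genes. The 13 genes were ceh-5, ceh-12, ceh-16, ceh-18, ceh-20, ceh-24, ceh-38, ceh-89, ceh-93, lin-39, mab-5, unc-62 and vab-3. Of these, 10 had 1 summit and 3 had 2, and no homeobox gene had more. Intervals here cover counting error over genes or summits only, since the files give no read counts and the depth of each replicate is unknown. A peak in whole larvae does not tell in which cells the protein was bound.

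**Figure D1:**
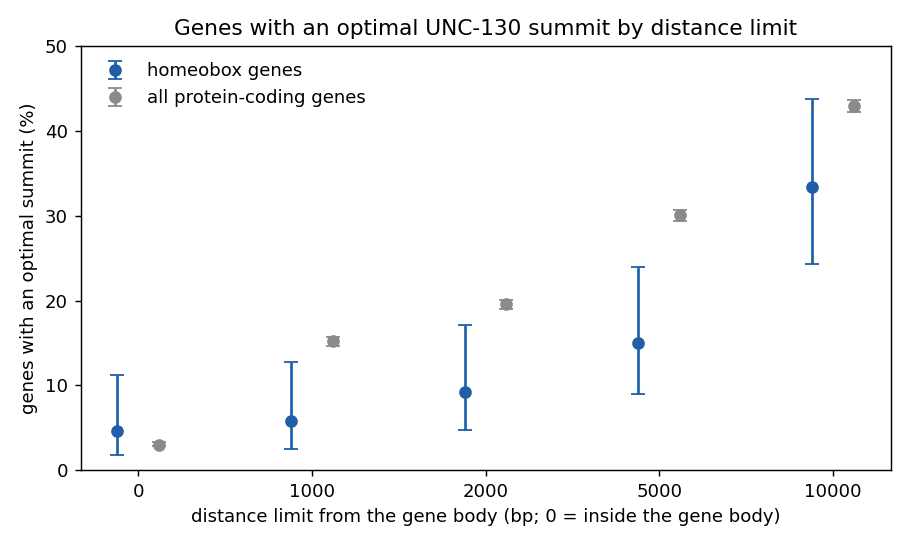
Percent of genes with an optimal UNC-130 summit (y axis) within each distance limit from the gene body (x axis, bp; 0 means inside the gene body), for the 87 homeobox genes (blue) and all 19973 protein-coding genes (grey), with 95% Wilson intervals. The homeobox share is 5.75% at 1000 bp and 14.9% at 5000 bp, against 15.2% and 30% of all genes, while inside the gene body it is 4.60% against 3.03%.

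Genomic sequence from 50 bp before to 50 bp after the summit, from the RefSeq WBcel235 assembly (the same build as ce11) and 5′ to 3′ on the strand of the homeobox gene, is shown for 6 of the 16 summits. Those of ceh-20, mab-5 and vab-3 are shown as examples of a summit just upstream of the gene or in its intron in every annotated transcript, and those of ceh-16 and ceh-93 because no other summit of the 16 held a forkhead motif. The motif letters searched were TGTTTAC and TGTTTGC, on both strands, and capitals mark a match.
ceh-20, plus strand, chrIII:6979084-6979184: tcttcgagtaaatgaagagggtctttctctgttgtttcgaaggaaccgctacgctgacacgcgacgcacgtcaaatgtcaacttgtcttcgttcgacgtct
mab-5, minus strand, chrIII:7778680-7778780: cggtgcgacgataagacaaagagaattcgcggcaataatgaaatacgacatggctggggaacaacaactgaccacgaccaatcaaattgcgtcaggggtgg
mab-5, minus strand, chrIII:7780613-7780713: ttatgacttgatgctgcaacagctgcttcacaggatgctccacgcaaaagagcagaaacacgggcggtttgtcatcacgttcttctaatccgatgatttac
vab-3, plus strand, chrX:10518348-10518448: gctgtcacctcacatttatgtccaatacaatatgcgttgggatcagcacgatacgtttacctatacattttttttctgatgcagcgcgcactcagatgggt
ceh-16, plus strand, chrIII:8630998-8631098: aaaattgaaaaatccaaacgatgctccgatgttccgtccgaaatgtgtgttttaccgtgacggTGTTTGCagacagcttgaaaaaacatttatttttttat
ceh-93, minus strand, chrX:382839-382939: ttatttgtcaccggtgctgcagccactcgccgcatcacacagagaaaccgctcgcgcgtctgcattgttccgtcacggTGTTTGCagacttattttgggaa

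Both matches read TGTTTGC on the strand of the homeobox gene. A motif was found at 2 of 16 summits near homeobox genes, or 12.5%, and at 280 of all 2631 optimal summits, or 10.6%. The order of these shares turned among the highest 2631 peaks of replicate 2 alone, with 5.88% and 8.25%. Within 100 bp of the summit the shares were 25% and 15.1%. Over the whole optimal list, TGTTTGC was present at 8.59% of summits and TGTTTAC at 2.24%. Among the pooled candidates, 10 of 316 near homeobox genes held a motif, or 3.16%, against 4.21% of all 30000. These candidates are the input to the reproducibility filter, which the authors name as peaks and background. The window at ceh-16 was 35.6% G and C and that at ceh-93 was 53.5%, so the matches sat in windows of unlike base composition. A match is a run of letters and no more, and the windows without these letters say nothing about binding of the factor.

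Among the TALE genes, 2 of 4 had an optimal summit, against 30% of all genes. With so few genes in a class, this count and those of the classes below describe only the genes listed. ceh-20 encodes the Pbx-type (Extradenticle-type) cofactor of Hox proteins. Its peak (chrIII:6979009-6979258) had a summit 750 bp upstream of the 5′ end, and no other protein-coding gene had a nearer 5′ end. The pooled signal was 50.5, which placed it at rank 663 of the 2631 optimal peaks. The signal, a value assigned to each peak by the authors, was 29.0 in the list of replicate 1, at rank 794, and 23.4 in that of replicate 2, at rank 600. It is on a scale of its own in each list, so only ranks are set side by side. Both replicates thus placed the ceh-20 peak in the upper part of their lists.

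unc-62 encodes the Meis-type (Homothorax-type) partner and had 2 optimal peaks close together, chrV:4507884-4508133 and chrV:4508187-4508436. Both summits lay in an intron of 3973 bp in 17 of the 18 annotated transcripts. In the remaining transcript they lay in the 5′ UTR, 805 and 1108 bp from its start. The nearest gene-model 5′ end was that of T28F12.1, 5024 and 4721 bp away, so both were counted as nearer to another gene. The first had rank 2040 in the pooled list, 1710 in replicate 1 and 2589 in replicate 2. The second had rank 1651 in the pooled list, 7513 in replicate 1 and 388 in replicate 2. The replicates therefore differed on which of the neighbouring peaks was higher. The unc-62 body held 11 pooled candidate summits.

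The other TALE genes, ceh-40 and ceh-60, encode further Pbx-type proteins and had candidates below the optimal list. A candidate summit 19 bp upstream of the 5′ end of ceh-40 had rank 3996 in the pooled list, 3677 in replicate 1 and 3977 in replicate 2. At ceh-60 the highest candidate lay in a coding exon with rank 3398 in the pooled list, 7342 in replicate 1 and 2353 in replicate 2. The best pooled rank of the 4 TALE genes thus lay between 663 and 3996, with a median of 2524.5. In the other classes the median lay between 7346.5 for Hox genes and 19243 for POU genes. A longer gene has a wider window for its best rank. Median gene length was 5101.5 bp for TALE genes and between 1978 and 5293.5 bp in the other classes. The median number of pooled candidates was 4.5 for TALE genes and between 1 and 5 in the others. The part of length in the ranks was not tested. With 2 to 21 genes in a class, these medians describe the genes listed and no more.

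**Figure D2:**
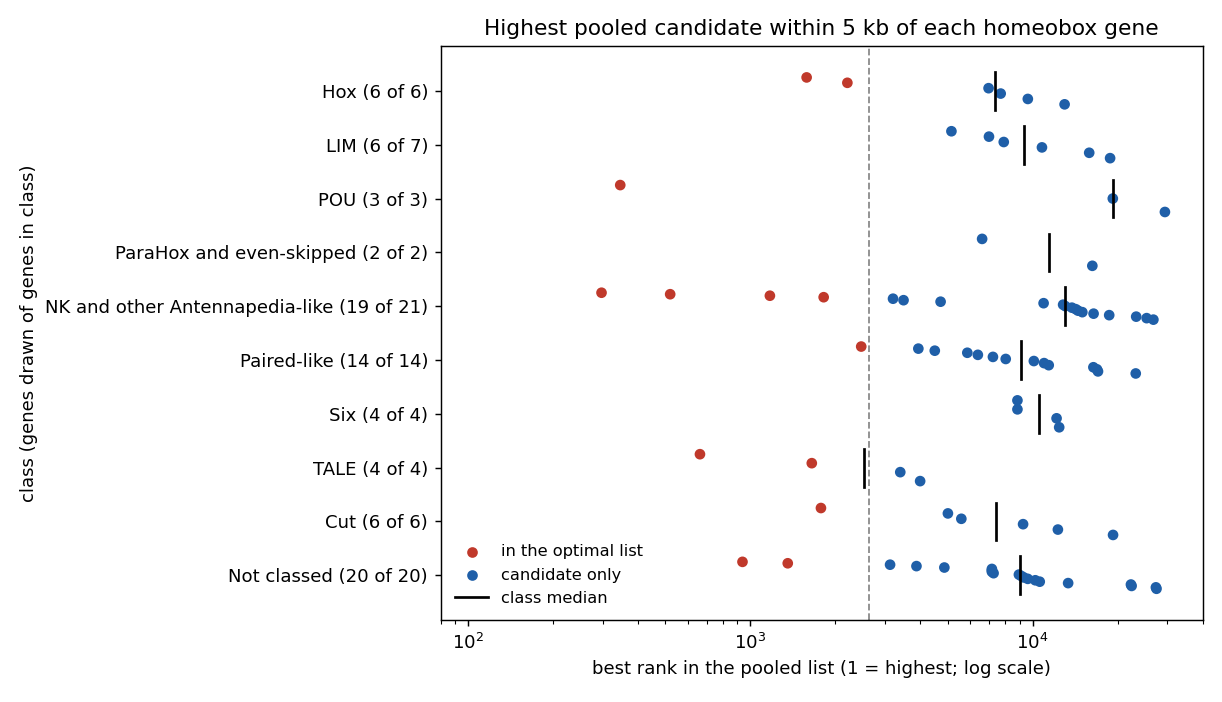
Rank by signal in the pooled candidate list (x axis, log scale, 1 is the highest) of the highest summit within 5000 bp of each homeobox gene, by class (y axis, with the number of genes that have a candidate). Red points are in the optimal list, left of the dashed line at rank 2631, black bars are class medians, and the TALE median of 2524.5 is the only one left of that line.

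Of the 6 Hox genes, mab-5 and lin-39 had optimal summits. mab-5, which directs cell fate and the posterior migration of neuroblast descendants in the posterior body, had 2 peaks, chrIII:7778605-7778854 and chrIII:7780538-7780787, both in intron 3 of 4, which is 3564 bp long. The first summit lay 4724 bp downstream of the mab-5 5′ end and nearer, at 2697 bp, to that of bath-15, and it had rank 1583 in the pooled list, 2199 in replicate 1 and 1688 in replicate 2. The second lay 2791 bp downstream of the mab-5 5′ end, the nearest one, and had rank 2375, 2384 and 3781 in the same lists. Both mab-5 summits were thus in the lower part of the optimal list by pooled signal (33.002 and 25.4, where the list spans 23.5 to 218). Another mab-5 candidate, 1072 bp upstream of the 5′ end, had pooled rank 6062, with rank 22800 in replicate 1 and 4359 in replicate 2.

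lin-39, the Hox gene of the mid-body with roles in vulval development, had 1 peak (chrIII:7525008-7525257), 3508 bp past the 3′ end of the gene body. Its pooled signal was 26.8, and it had rank 2207 in the pooled list, 2764 in replicate 1 and 1727 in replicate 2. The nearest 5′ end was that of lig-4, which encodes a DNA ligase, at 3670 bp. A candidate 172 bp upstream of the lin-39 5′ end had pooled rank 6775, with rank 27821 in replicate 1 and 5897 in replicate 2. This promoter candidate was therefore found in both replicates but stood low in replicate 1.

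The other 4 Hox genes had candidates only. Within 5000 bp, ceh-13, the labial-type gene of the anterior, had 3 pooled, 1 replicate 1 and 3 replicate 2 candidate summits, and its best pooled rank was 6984. egl-5, an Abdominal-B-type gene of the tail, had 2, 1 and 2, with a best rank of 12986. The posterior pair nob-1 and php-3, also of the Abdominal-B type, had 6, 8 and 3 (best rank 9620) and 4, 6 and 2 (best rank 7709). By the same counts lin-39 had 6, 6 and 7 candidates and mab-5 had 9, 13 and 8. All 6 Hox genes thus had at least 1 candidate in each list. Of all genes, 92.3% had one in the pooled list, 92.7% in replicate 1 and 91.8% in replicate 2. The deposited −log10 q of the best pooled candidate was 0.995 for ceh-13, 0.448 for egl-5, 0.676 for nob-1 and 0.881 for php-3. Candidates include background, so these counts do not by themselves show binding. The 2 of 6 Hox genes with an optimal summit are near the share of 30% over all genes.

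None of the 7 LIM genes had an optimal summit, against 30% of all genes. In the pooled, replicate 1 and replicate 2 lists ceh-14, which acts in thermosensory and other neurons, had 5, 4 and 8 candidate summits. lim-4, needed for olfactory neuron identity, had 3, 2 and 2, lim-6, which acts in GABA neurons, had 6, 4 and 8, and lim-7, known for its use in gonadal sheath cells, had 1, 2 and 1. lin-11, with roles in the vulva and in sensory neurons and interneurons, had 4, 2 and 3. ttx-3, which specifies the AIY interneuron, had 3 in each. mec-3, which specifies touch receptor neurons, had none in the pooled list, none in replicate 1 and 2 in replicate 2, the higher of them at rank 7035 there and 65 bp upstream of the 5′ end. Over the 6 LIM genes with a pooled candidate, the best rank lay between 5158 for ceh-14 and 18823 for ttx-3, all below the optimal list. The −log10 q of these candidates ran from 1.53 for ceh-14 down to 0.259 for ttx-3.

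Of the 3 POU genes, 1 had an optimal peak, against 30% of all genes. This peak (chrX:3839292-3839541) was that of ceh-18, which acts in gonadal sheath cells and so affects oocyte meiotic arrest. Its summit lay 3950 bp past the 3′ end of the gene and 3031 bp from the nearest 5′ end, that of ttr-48. The pooled signal of 64.7 was the second highest near any homeobox gene, with rank 346 in the pooled list, 394 in replicate 1 and 1215 in replicate 2. This summit stood high in the lists of both replicates and was not near a gene-model 5′ end of a protein-coding gene. ceh-18 also had 12 pooled, 12 replicate 1 and 8 replicate 2 candidates. Among these, a candidate 1381 bp upstream of its 5′ end had pooled rank 3550 and rank 2389 in replicate 1, with no overlapping peak in replicate 2.

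unc-86, needed for neuroblast lineages and touch receptor identity, had 1, 1 and 3 candidates in the pooled, replicate 1 and replicate 2 lists. ceh-6, which acts in the excretory cell and in neurons, had 1, 1 and 2. Their best pooled ranks were 19243 and 29436 in the list of 30000, with −log10 q of 0.251 and 0.110.

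The paired-like class (14 genes) and the Cut class (6 genes) had 1 gene each with an optimal summit, against 30% of all genes. The Cut gene that RefSeq names ceh-44 has no ceh name in the gene models used and so was not among the 87 genes. vab-3 encodes the Pax-6-type protein that patterns the head. Its peak (chrX:10518273-10518522) lay in the last intron, 11 of 11 and 508 bp long, 18508 bp from the 5′ end of the gene and 2395 bp from the nearest annotated transcript start of vab-3. By gene-model 5′ ends the nearest was that of F14F3.4, at 3015 bp, which is farther than that transcript start. The peak had a pooled signal of 24.6 and rank 2471 in the pooled list, close to the end of the optimal list. Its rank was 2640 in replicate 1 and 2945 in replicate 2. The vab-3 body held 12 pooled candidate summits, 7 of them in its last 5000 bp. The vab-3 candidates thus gathered in the last 5000 bp of the gene, which also hold the annotated transcript start 2395 bp before the summit.

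ceh-38, a Cut-class gene of the ONECUT type, had the only optimal summit within 500 bp of the 5′ end of any homeobox gene. That peak (chrII:6951417-6951666) had its summit 16 bp downstream of the 5′ end, in the 5′ UTR of 3 of 24 transcripts and outside the other 21. The pooled signal was 30.7, at rank 1779, and the ranks were 2097 in replicate 1 and 2192 in replicate 2, so both replicates placed it inside their own highest 2631.

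The 4 Antennapedia-like genes with an optimal summit were ceh-5, ceh-12, ceh-16 and ceh-24, of 21 in that class, against 30% of all genes. ceh-5 had 2 peaks, both upstream of it on chromosome I and both inside ocrl-1. That gene overlaps ceh-5 and encodes a phosphoinositide phosphatase. The farther (chrI:9722301-9722550) had the highest pooled signal near any homeobox gene, 68.6, with rank 297 in the pooled list, 406 in replicate 1 and 198 in replicate 2. It lay 4743 bp upstream of ceh-5 and only 290 bp upstream of eat-16, which encodes a regulator of G protein signalling. The nearer (chrI:9725289-9725538) lay 1755 bp upstream of ceh-5, in a coding exon of eat-16, and had rank 730 in the pooled list, 1139 in replicate 1 and 878 in replicate 2. The highest summit counted for a homeobox gene therefore lay at the start of its neighbour.

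ceh-24, an NK-type gene of pharyngeal muscle and head neurons, had a peak (chrV:13819079-13819328) at rank 520 in the pooled list, 667 in replicate 1 and 522 in replicate 2. The summit lay 3854 bp past the gene and 157 bp upstream of sel-10, which encodes an F-box protein. ceh-16, the engrailed-type gene of the seam epidermis, had a peak (chrIII:8630923-8631172) at rank 1173 in the pooled list, 1155 in replicate 1 and 2808 in replicate 2. That summit lay 4734 bp past the gene and 117 bp upstream of dnj-10, which encodes a DnaJ-type chaperone. ceh-12, a gene of the HB9 type in motor neurons, had a peak (chrI:5843060-5843309) at rank 1819 in the pooled list, 2571 in replicate 1 and 1780 in replicate 2, 1245 bp past the gene in an intron of the collagen gene col-54. It was the only summit of the 16 within 100 bp of a tRNA, snoRNA, snRNA, rRNA or miRNA gene, against 186 of all 2631.

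The other summits belonged to 2 of the 20 genes left without a class here, where 30% of all genes had an optimal summit. At ceh-89 the summit (peak chrX:14146832-14147081) lay 2068 bp past the gene and 743 bp upstream of akt-2, which encodes a protein kinase of the insulin pathway. Its rank was 938 in the pooled list, 1140 in replicate 1 and 787 in replicate 2. At ceh-93 it (peak chrX:382764-383013) lay 1496 bp past the gene and 180 bp upstream of ife-2, which encodes a translation initiation factor that binds the mRNA cap. Its rank was 1357 in the pooled list, 734 in replicate 1 and 11012 in replicate 2. Of the 16 summits, ceh-93's was the one that stood lowest in a single replicate.

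**Figure D3:**
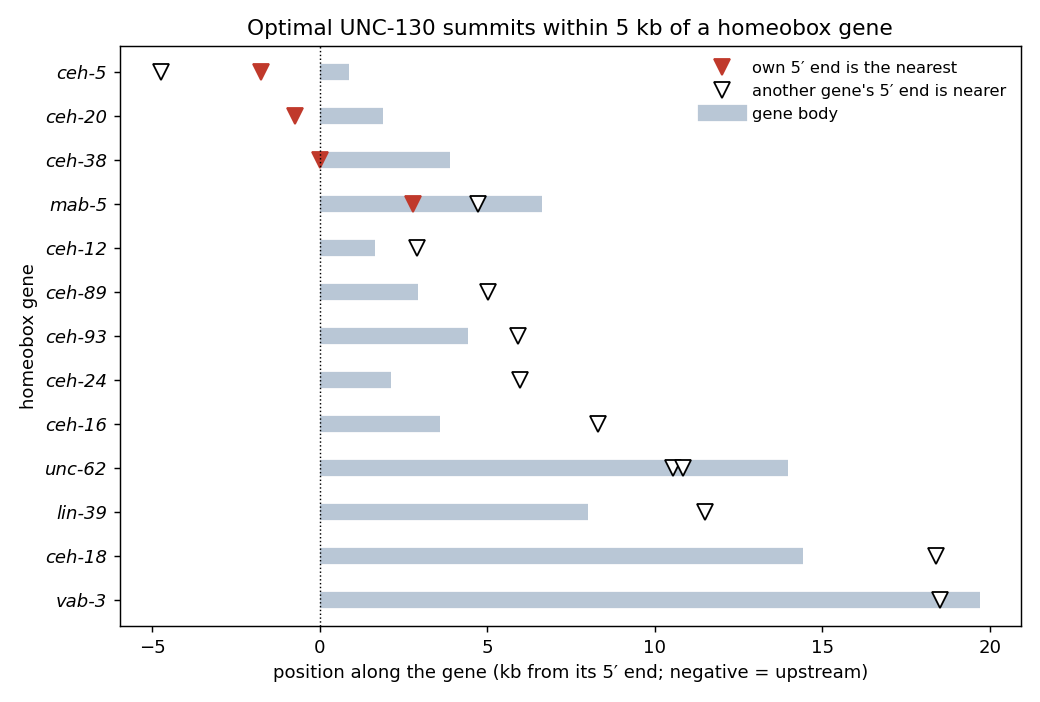
Position of the 16 optimal summits (triangles) along the 13 homeobox genes (y axis), in kb from the gene's 5′ end (x axis, negative is upstream), with the gene body as a grey-blue bar. Red triangles are the 4 summits whose nearest gene-model 5′ end is the homeobox gene's own. Open triangles are the 12 that lie nearer to that of another gene.

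By position, 3 of the 16 summits were upstream of the homeobox gene, 6 were inside it and 7 were past its 3′ end. The gene's own 5′ end was the nearest for 4 summits, those of ceh-5 (the nearer of its pair), ceh-20, ceh-38 and mab-5 (the second), or 4.60% of homeobox genes (interval 1.80% to 11.2%) against 11.1% of all genes. Counted over pairs of a gene and a summit, 25% of homeobox pairs and 31.9% of all pairs were of this kind. These counts use gene-model 5′ ends. The unc-62 and vab-3 summits lay nearer to an annotated transcript start of their own gene than to the other gene's 5′ end. Transcript starts were not counted for all genes. Another gene's 5′ end lay within 500 bp for 5 summits, those of ceh-12, ceh-16, ceh-24, ceh-93 and the farther of ceh-5. A summit within 500 bp of the own 5′ end was found for 1 homeobox gene, or 1.15% (interval 0.203% to 6.23%), against 8.99% of all genes. Inside the gene body the counts were 4 homeobox genes, or 4.60% (interval 1.80% to 11.2%), against 3.03%, and this interval holds the share of all genes. Among the 1315 optimal peaks with the highest signal, no homeobox gene had a summit inside its body, against 1.32% of all genes, where a count of 0 of 87 allows up to 3.45%.

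The sequence around the genes was also counted per Mb. In the 1000 bp upstream of the 5′ end there was 1 summit over the 87 homeobox genes, or 11.5 per Mb (exact Poisson interval 0.291 to 64.0), against 104 per Mb over all genes. Inside gene bodies there were 16.3 per Mb (interval 5.99 to 35.5), against 11.7. From 2000 to 5000 bp past the gene there were 19.2 per Mb (interval 6.22 to 44.7), against 25.6. The upstream kilobase was thus the zone in which the interval lay below the level of all genes, together with the zone from 2000 to 5000 bp upstream, which had 3.83 per Mb (interval 0.0970 to 21.3) against 29.3.

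Homeobox genes were also longer and farther from their neighbours. Their median length was 3339 bp, against 2027 bp for all genes, and the median gap to the next gene upstream was 2750 bp, against 937 bp. Within 5000 bp they had a median of 2 other 5′ ends, against 3. Over merged windows of gene bodies with 5000 bp on each side, there were 13.7 optimal summits per Mb for homeobox genes and 26.6 per Mb for all genes. Homeobox genes thus differed from all genes in length and spacing as well as in summits, and the part of either in the lower share was not tested.

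In the full candidate lists, which are longer than the optimal list and reach nearly every gene, the shares stood close together. A pooled candidate lay within 5000 bp of 84 of 87 homeobox genes, or 96.6% (interval 90.3% to 98.8%), against 92.3% of all genes. With the 10000 highest pooled candidates the order turned, to 54.02% against 62.2%. In the list of replicate 1 the share was 98.9% against 92.7%, and in that of replicate 2 it was 98.9% against 91.8%. The density of pooled candidates was 271 per Mb at homeobox genes and 303 per Mb at all genes, with 274 and 303 per Mb in replicate 1 and 253 and 255 per Mb in replicate 2. A candidate was present in all 3 lists for 83 homeobox genes. ceh-27, ceh-28 and mec-3 had no pooled candidate, and ceh-84 had none in replicate 2.

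Few candidates near homeobox genes were in the optimal list. Of the 316 distinct pooled candidates there, the 16 summits described above were optimal, or 5.06% (interval 3.14% to 8.07%), against 8.79% (interval 8.48% to 9.12%) of those near any protein-coding gene. Of the same 316, 28.2% overlapped a peak of both replicates by at least 1 bp, against 31.01%. In the first 1000 bp upstream, pooled candidates stood at 195 per Mb (interval 114 to 313) for homeobox genes and 432 per Mb for all genes, with 230 and 431 per Mb in replicate 1 and 230 and 360 per Mb in replicate 2. In the upstream kilobase homeobox genes thus had fewer summits per Mb than all genes in the optimal list and in all 3 candidate lists.

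**Figure D4:**
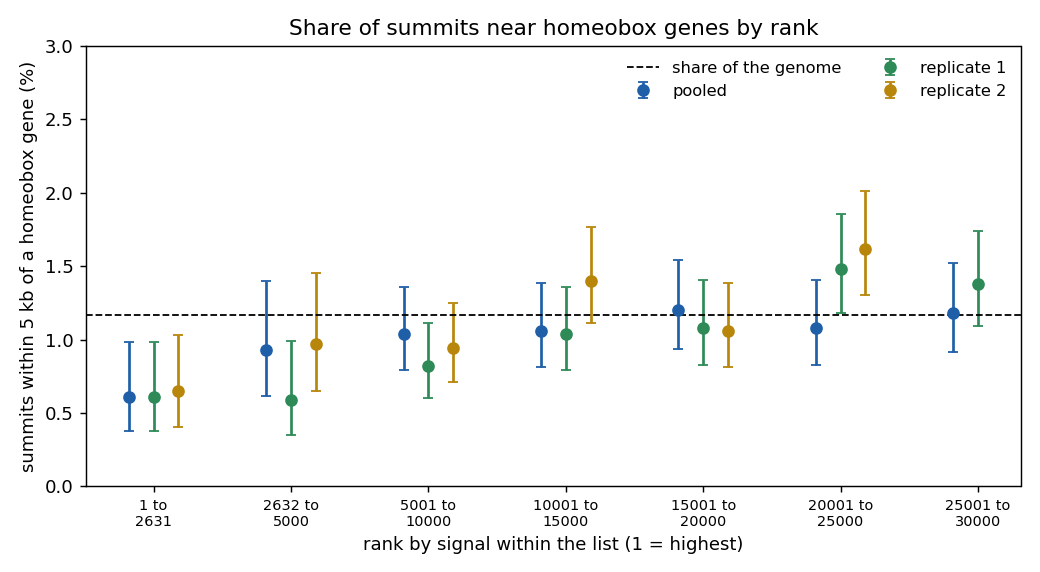
Percent of summits that lie within 5000 bp of a homeobox gene (y axis) by rank of signal within the pooled, replicate 1 and replicate 2 lists (x axis), with 95% Wilson intervals, and a dashed line at 1.16%, the share of the genome that these windows cover. The highest 2631 summits hold 0.608%, 0.608% and 0.646% in these lists, and the 5000 that follow rank 20000 hold 1.08%, 1.48% and 1.62%. The first pooled point rests on the 16 optimal summits.

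The share also moved with rank. Windows around homeobox genes cover 1.16% of the nuclear genome, and they held 0.608% (interval 0.375% to 0.986%) of the 2631 highest pooled summits. These were the same 16 summits as in the optimal list, at the same ranks, so this value restates the count given above. They held 0.929% of ranks 2632 to 5000 and between 1.04% and 1.20% of each later block of 5000. In the list of replicate 1 the share was 0.608% among the highest 2631 and 1.38% among the last 5000. In that of replicate 2 it was 0.646% among the highest 2631 and 1.62% among ranks 20001 to 25000. At the top of each list the share and its interval thus lay below the share of the genome, and at the end of each list they did not.

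Each replicate taken alone gave a like share of genes. Among the 2631 highest peaks of replicate 1, a summit lay near 13 homeobox genes, or 14.9%, against 30.5% of all genes. Among those of replicate 2, it lay near 14, or 16.1%, against 27.9%. All 16 optimal peaks near homeobox genes overlapped a peak of both replicates, as did 2566 of all 2631. A peak among the highest 2631 of both replicates was overlapped by 10 of the 16, or 62.5%, against 57.2% of all optimal peaks. The 6 others were one of the mab-5 pair, one of the unc-62 pair, and those of ceh-16, ceh-93, lin-39 and vab-3. The median pooled rank of the 16 was 1470, against 1305.5 for optimal summits near any protein-coding gene.

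**Figure D5:**
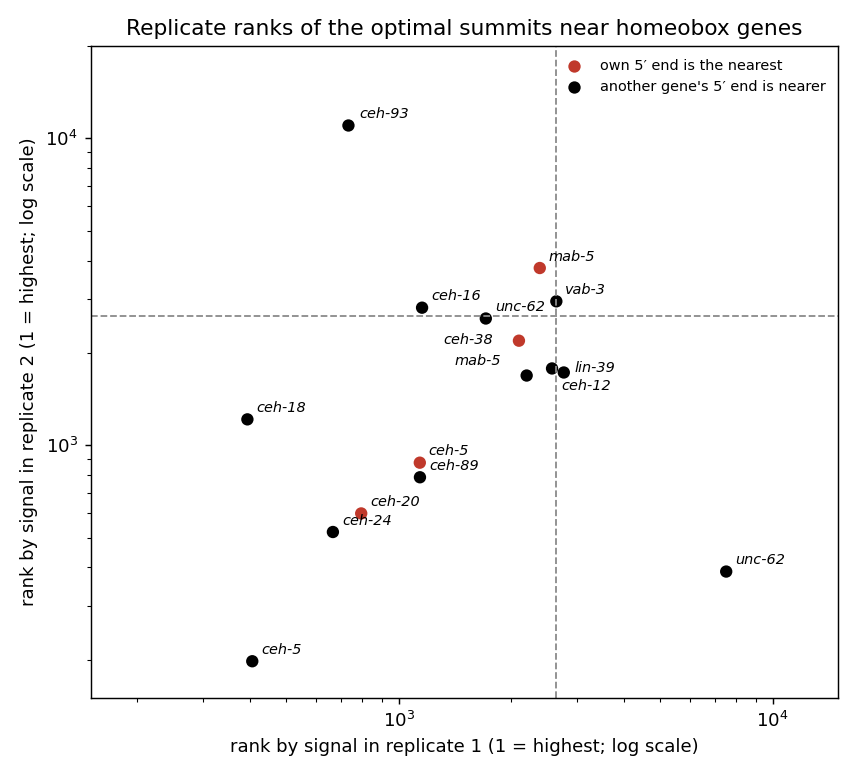
Rank by signal in replicate 1 (x axis) and replicate 2 (y axis), both on log scales with 1 as the highest, of the 16 optimal summits near homeobox genes. Dashed lines mark rank 2631, and the points farthest from the diagonal are ceh-93 (734 and 11012) and the second unc-62 peak (7513 and 388).

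Below the optimal list, 10 pooled candidates near homeobox genes had a deposited −log10 q of at least 2, or 8.57 per Mb of merged window, against 13.7 per Mb for all genes. Outside the Hox, LIM and POU classes, the 5 genes without an optimal summit that had the highest pooled candidate were ceh-88 (rank 3127), ceh-63 (3203), ceh-60 (3398), ceh-7 (3490) and ceh-76 (3878). Only the ceh-76 candidate, 729 bp upstream of its gene, had the own 5′ end as the nearest. It had rank 3035 in replicate 1 and 10217 in replicate 2. The ceh-63 candidate, 440 bp from the 5′ end of tag-52, had rank 2435 in replicate 1 and 2392 in replicate 2, which is inside the highest 2631 of each. The ceh-88 candidate lay in the 3′ UTR of ceh-88 and 166 bp from the 5′ end of C49C3.6, with rank 2049 in replicate 1 and 23619 in replicate 2. The ceh-7 candidate lay 31 bp from the 5′ end of cup-16, with rank 14360 in replicate 1 and 2887 in replicate 2.

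The remaining homeobox genes without an optimal summit are given by ranges. They include all 4 genes of the sine oculis type and both of the ParaHox and even-skipped class, where 30% of all genes had such a summit. The 4 genes of the sine oculis type had 2 to 3 pooled candidates each and best ranks from 8838 to 12425. The ParaHox gene pal-1 and the even-skipped-type gene vab-7 had best ranks of 6626 and 16283. The 5 such Cut genes had best ranks from 5012 to 19281, and the 13 paired-like genes from 3938 to 23202. Those of the Antennapedia-like genes with a candidate ran from 3203 to 26794, and those of the 18 unclassed genes from 3127 to 27484. Neighbouring homeobox genes shared candidates: ceh-81, ceh-82 and ceh-83 had the same best candidate at rank 7175, and ceh-33 and ceh-34 that at rank 8838.

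By chromosome, an optimal summit was near 2 of 10 homeobox genes on chromosome I, against 40.2% of all genes there, and near 1 of 15 on II, against 29.7%. It was near 4 of 16 on III, against 39.4%, and near 0 of 6 on IV, against 27.1%. It was near 2 of 16 on V, against 20.7%, and near 4 of 24 on X, against 31.3%. The count depended on the limit of 5000 bp. There were 8 homeobox genes at 2000 bp, or 9.20%, against 19.5% of all genes. At 5000 bp there were 13, or 14.9%, against 30%, and at 10000 bp 29, or 33.3%, against 42.9%. The outermost summits counted were those of ceh-5, 4743 bp away, and ceh-16, 4734 bp away. Just outside it lay a summit 5091 bp from vab-3, with rank 902 and 106 bp from the 5′ end of mboa-7, and one 5384 bp from ceh-18, with rank 2000. Both of these genes were counted already through another summit. A further 16 homeobox genes had their first summit between 5000 and 10000 bp. Over the same step the count of all genes with a summit rose from 5999 to 8571.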

How the data were processed

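The authors deposited peak lists in narrowPeak layout on the ce11 build. There is 1 list for each replicate (30000 and 25234 candidate peaks), 1 for the pooled replicates (30000) and the optimal list (2631). Per the deposited notes, the pooled and optimal lists were derived from the alignments of both replicates. The authors' signal value per peak and the −log10 q-value are as deposited, and signal was used only to rank peaks within 1 list. For the aligner and the peak caller, no name is given in the sources used here. The labels call the 2 samples biological replicates.

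Summits were placed on Ensembl release 115 gene models of WBcel235 with Python 3.11.15, pandas 2.3.3 and NumPy 2.4.6, counting from 1. The 5′ end is that of the gene model. Wilson and exact Poisson intervals (95%) came from SciPy 1.17.1, and the counting was tested on simulated summits.

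Members, classes and measures were chosen with earlier results of these data known. Named were every homeobox gene with an optimal summit within 5000 bp, every Hox, LIM and POU gene, and of the others the 5 with the highest pooled candidate; ceh-40, ceh-44, ceh-27, ceh-28, ceh-84, pal-1, vab-7 and the genes that shared candidates were named after their values were seen. The shares within 500 bp of the 5′ end and inside the gene body were added after the data were seen. Alternatives changed the distance limit, the part of the list, the replicate, structural RNA genes, the overlap and the motif window. The ce10 lists were left out.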

Additional observations from a re-analysis of the deposited data

How the results depend on the processing

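The share of homeobox genes with an optimal summit stayed below that of all genes in all 7 alternatives, as did the density in 5 of 5 and the share with an own summit in 5 of 5. The share of genes with an optimal summit was 5.75% against 15.2% at a limit of 1000 bp, 33.3% against 42.9% at 10000 bp, and 6.90% against 18.1% in the 1315 optimal peaks with the highest signal, where the density was 6.00 against 13.4 per Mb. Among those peaks no homeobox gene had a summit within 500 bp of its 5′ end (0% against 5.56%) or in its body (0% against 1.32%); a count of 0 of 87 allows up to 3.45%. Of their summits near homeobox genes and of all, 85.7% against 86.5% overlapped the highest peaks of both replicates, so the order of these shares and of those in gene bodies turned. The median rank as a percent of the list (0 is the top) was 55.9 against 49.6, 65.2 against 48.99 at 2000 bp, and between 54.4 and 64.2 with 1 replicate left out. Genes with a candidate were 98.9% with either replicate left out (against 91.8% without replicate 1 and 92.7% without replicate 2) and 54.02% against 62.2% with the 10000 highest pooled peaks, where the order turned. The motif share also turned, to 10% against 10.6% at 2000 bp and to 5.88% against 8.25% without replicate 1, and stood at 25% against 15.1% within 100 bp. Over 43 alternatives, 31 moved a value by less than its interval and 12 by more, and the causes were not tested. With 13 genes and 16 summits, 1 summit more or less moves these shares visibly, and depth is unknown.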

Other observations

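The windows at the summits of ceh-16 and ceh-93 shared a run of 15 bases around the motif, noticed after the sequences were read, with capitals marking the motif.
shared run: acggTGTTTGCagac
The run occurred 13 times in the nuclear genome, within 50 bp of 6 optimal summits (0.228%) and of 10 pooled summits (0.0333%), and 2 of the 6 optimal ones were near homeobox genes. What the run is was not tested.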
